A study of Mus musculus with 18 samples.

Results

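The 10 genes described here are the REV-ERB nuclear receptor genes Nr1d1 and Nr1d2, the clock activators Arntl, Clock and Npas2, the clock inhibitors Per1, Per2 and Cry1, and the rhythmic output genes Dbp and Noct. They were taken by symbol, all 10 were found, and each of the 2 count tables holds 32015 gene symbols. Polyadenylated RNA was sequenced from cultured mouse tumour cells in which NCOR1, the corepressor that REV-ERB receptors use, had been targeted with CRISPR guide RNAs. In the liver cancer line Hepa1-6 there were 3 libraries with the guide sgNcor1-1, 3 with the guide sgNcor1-2 (both labelled as Ncor1 knockout) and 3 with the control guide sgCtrl (labelled WT). The melanoma line B16 had the same design, which makes 6 groups of 3 and 18 libraries in all. The labels name no Cas9 source, clone, passage, harvest time or clock synchronisation, and they do not state whether replicate libraries are separate cultures. The p-values therefore rest on the spread between libraries, part of which may be technical. A library is named by its guide and replicate number, as in sgCtrl 1, and a level in CPM is the count relative to the scaled library size, on the same scale for all 18 libraries.

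Hepa1-6 libraries held 17689335 to 30819689 counts in total, B16 libraries 15663983 to 25263749. Some libraries stood apart within their line. On the first principal component of Hepa1-6 (52.8% of the variance) the libraries numbered 1 lay at -79.6 for sgNcor1-1, -77.4 for sgNcor1-2 and -28.8 for sgCtrl, against 17.0 to 39.6 for the other 6. In B16 (47.0%) the library sgNcor1-1 1 lay at -105, against -31.5 to 54.1 for the other 8. The labelled line was checked against marker genes. The summed level of 12 hepatocyte and hepatoma markers was 1049 to 1645 CPM in Hepa1-6, against 88.6 to 147.9 CPM in B16, where Alb and Afp were at 0 in every library. In Hepa1-6 the list was uneven, with 533 to 702 CPM of Trf, 81.7 to 207 CPM of Alb and 34.1 to 182 CPM of Apob, and at most 0.512 CPM of Apoa1 and 0.128 CPM of Ttr. The 8 melanocyte markers summed to 0.958 to 3.99 CPM in Hepa1-6, where Tyrp1 and Dct were at 0, against 4784 to 17512 CPM in B16.

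Ncor1 itself was read as a check of the labels. In Hepa1-6, Ncor1 had 199.6, 133 and 178 CPM with sgNcor1-1, 151, 142 and 189.6 CPM with sgNcor1-2 and 269, 266 and 223 CPM with sgCtrl, so that all 6 Ncor1-guide libraries lay below all 3 controls, with a log2 fold change of -0.62 (adjusted p = 0.223, SE 0.17) in the quasi-likelihood test of edgeR. In B16 it had 346, 236 and 296 CPM with sgNcor1-1, 352, 232 and 306 CPM with sgNcor1-2 and 326, 272 and 323 CPM with sgCtrl, the groups overlapped, and the log2 fold change was -0.06 (adjusted p = 1.00, SE 0.19). Neither passed the adjusted threshold of 0.05 in this fit, or with any single library left out. Under another of the alternatives described below, Ncor1 passed it in Hepa1-6, and in B16 it passed under none. Over all alternatives its log2 fold change in Hepa1-6 lay between -0.70 and -0.55. The transcript level does not measure how much NCOR1 protein was left.

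REV-ERB receptors (REV-ERBα from Nr1d1, REV-ERBβ from Nr1d2) bind heme, lack the helix with which other nuclear receptors activate genes, and silence their targets by recruiting NCOR1 with histone deacetylase 3. Their classical target is Arntl, which encodes BMAL1. BMAL1 pairs with CLOCK, or with its paralogue NPAS2, and binds E-box elements to switch on Per, Cry, Nr1d1 and Dbp, and PER and CRY proteins then inhibit that pair, which closes the daily loop. In liver the loop sets the daily timing of lipid, glucose and bile acid metabolism, and cultured cell lines can run it too.

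The elements of this loop can be looked for in the promoters of Nr1d1, Dbp and Per1, whose levels varied widely in both lines, and of the REV-ERB target Arntl. Windows of 300 bases, 250 before and 50 after an annotated start, were taken from RefSeq on GRCm38.p6, in which 9 of the 10 genes had an entry. They are chr11:98775328-98775627 on the minus strand for Nr1d1, chr7:45704997-45705296 on the plus strand for Dbp, chr11:69098699-69098998 on the plus strand for the first of 2 Per1 promoters, and chr7:113207261-113207560 on the plus strand for the second of 2 Arntl promoters. Capitals mark the motifs found.
Nr1d1 promoter: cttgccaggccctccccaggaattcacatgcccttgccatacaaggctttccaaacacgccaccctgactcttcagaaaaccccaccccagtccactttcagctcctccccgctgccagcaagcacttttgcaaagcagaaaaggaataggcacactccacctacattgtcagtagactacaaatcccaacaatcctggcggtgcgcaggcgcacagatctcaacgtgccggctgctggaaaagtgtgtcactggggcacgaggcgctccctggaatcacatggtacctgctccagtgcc
Dbp promoter: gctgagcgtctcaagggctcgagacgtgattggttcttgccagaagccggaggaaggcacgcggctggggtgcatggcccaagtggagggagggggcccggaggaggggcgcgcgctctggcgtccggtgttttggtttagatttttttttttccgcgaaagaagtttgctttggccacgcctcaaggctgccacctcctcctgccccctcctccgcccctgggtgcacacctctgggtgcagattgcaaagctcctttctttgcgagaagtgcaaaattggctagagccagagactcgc
Per1 promoter: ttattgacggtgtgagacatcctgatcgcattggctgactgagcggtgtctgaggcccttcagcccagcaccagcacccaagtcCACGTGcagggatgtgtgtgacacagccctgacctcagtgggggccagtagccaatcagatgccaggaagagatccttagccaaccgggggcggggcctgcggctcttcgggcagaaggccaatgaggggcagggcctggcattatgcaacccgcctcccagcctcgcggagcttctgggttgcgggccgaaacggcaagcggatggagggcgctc
Arntl promoter: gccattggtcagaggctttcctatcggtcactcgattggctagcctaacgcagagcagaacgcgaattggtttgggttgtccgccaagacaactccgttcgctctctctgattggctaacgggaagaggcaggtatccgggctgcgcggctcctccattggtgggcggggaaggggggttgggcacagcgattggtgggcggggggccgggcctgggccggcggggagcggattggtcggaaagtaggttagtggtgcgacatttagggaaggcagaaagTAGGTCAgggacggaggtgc

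Both strands were searched for the E-box CACGTG, which is its own reverse complement, the D-box TTATGTAA bound by DBP, the core TAGGTCA of the REV-ERB and ROR element, and the cyclic AMP element TGACGTCA. The capitals in Per1 are an E-box that starts 166 bases before the start site, and those in Arntl are a REV-ERB and ROR core that starts at base 30 after it. The Cry1 promoter, not printed, holds an E-box 60 bases before its start. No motif of the 4 was in the Nr1d1 and Dbp windows, nor in those of Nr1d2, Clock, Npas2 and Noct. None of the found motifs overlapped another. Of 32851 promoter windows of this length, 7.15% held the E-box, 0.938% the D-box, 2.61% the REV-ERB and ROR core and 1.79% the cyclic AMP element. A match is a description of these letters and not a measured binding site.

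With 1 mean per group and no block, no clock gene passed the test for an effect of the Ncor1 guides in either line. In Hepa1-6 edgeR called 25 of 12458 genes (0.201%), 7 higher and 18 lower with the Ncor1 guides, and 0 of the 10 clock genes. In B16 it called 4 of 12347 genes (0.0324%), all lower, and 0 of the 8 clock genes with enough counts to be tested. DESeq2 also called 0 of them in each line, and so did edgeR with any 1 library left out, when it called 6 to 19 genes in Hepa1-6 and 1 to 3 in B16. With the replicate number as a block, which pairs the B16 libraries, edgeR called 48 genes in B16 (0.389%), or 339 when sgNcor1-1 1 was left out as well, and 0 clock genes in both fits. Without adjustment, 1 clock gene (Npas2) had a p under 0.05 in Hepa1-6, where 11.1% of all genes did, and 0 did in B16, where 2.36% of all genes did. With the block in B16, 2 of 8 did, against 8.05% of all genes. With the block in Hepa1-6, 5 of 10 did, against 24.4% of all genes. That fit called 525 genes (4.21%) and 1 clock gene, Per1, as described with the other alternatives. No clock gene had Ncor1-guide and control libraries that did not overlap, a state found for 9.13% of genes tested in Hepa1-6 and 2.25% in B16. The fold changes of the clock genes were above 0 for 5 of 10 in Hepa1-6 (52.6% of all genes) and for 7 of 8 in B16 (52.9% of all genes), with medians of -0.09 and 0.30 on the log2 scale. In bulk RNA fewer cells with a transcript and less transcript per cell cannot be told apart.

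**Figure D1:**
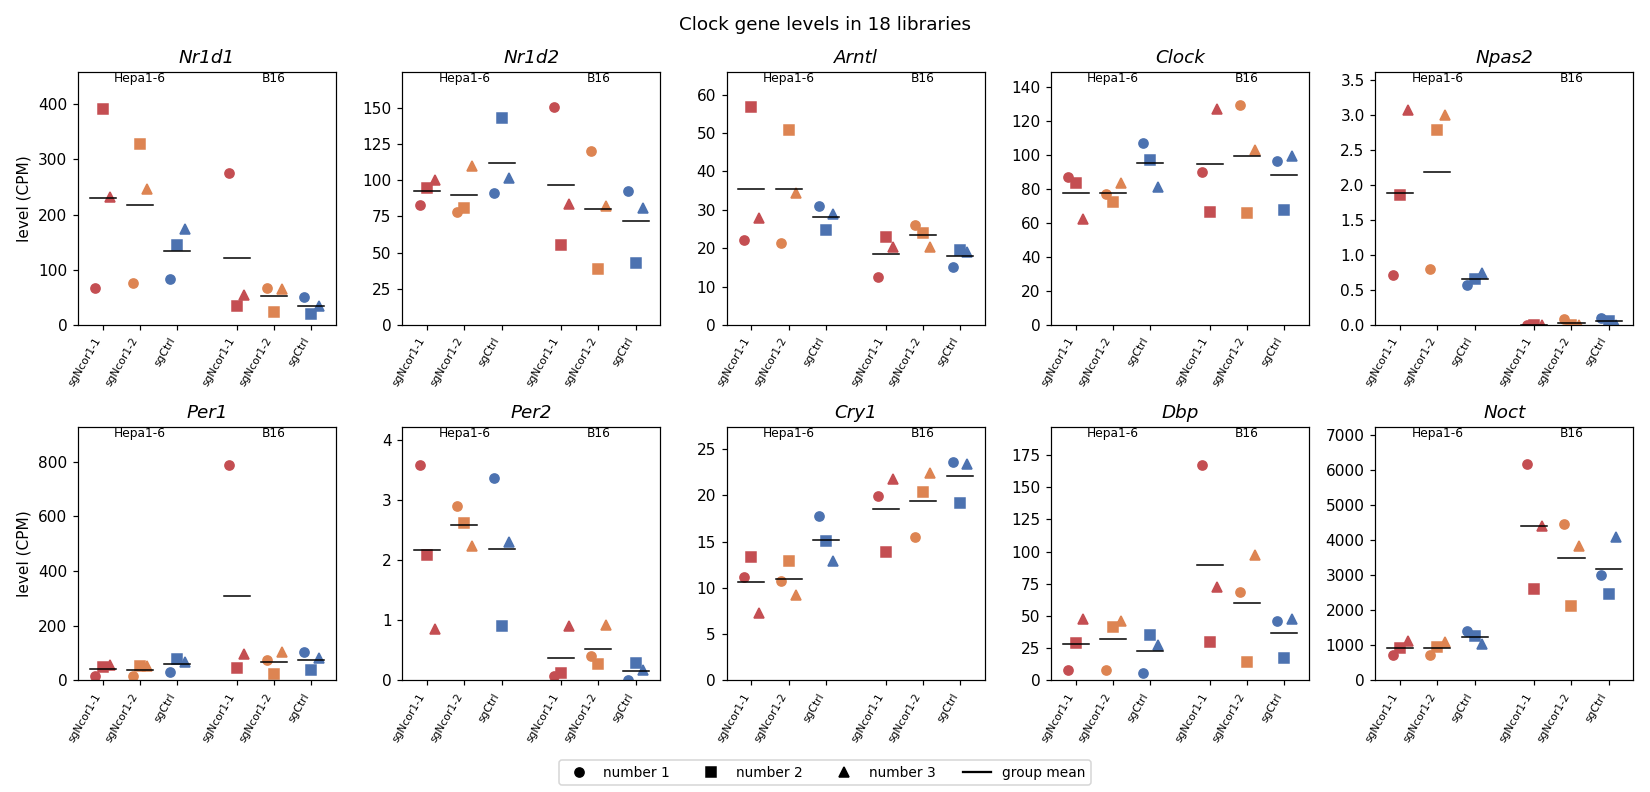
Level of each clock gene in CPM (vertical axes, linear) in the 18 libraries, by line and guide. Symbols give the replicate number and bars the mean of 3 libraries. Nr1d1 and Dbp spread widely within every group with the number, Per1 and Noct were highest in B16 sgNcor1-1 1, and Npas2 was at or near 0 in all B16 libraries.

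Nr1d1, which encodes REV-ERBα, had the widest swings of the receptors. In Hepa1-6 it had 67.2, 391 and 232 CPM with sgNcor1-1, 76.0, 327 and 247 CPM with sgNcor1-2 and 84.0, 145 and 173 CPM with sgCtrl. The libraries numbered 1 were lowest with each guide, at a like level in all 3 groups, while the other 4 Ncor1-guide libraries lay above both other controls. The log2 fold change with the Ncor1 guides was 0.73 (adjusted p = 0.672, SE 0.57) in edgeR, little above its error. Without the libraries numbered 1 it was 0.91 (adjusted p = 0.175, SE 0.24), with a much smaller error and still no call. In B16, Nr1d1 had 276, 33.7 and 54.0 CPM with sgNcor1-1, 66.8, 24.2 and 66.1 CPM with sgNcor1-2 and 49.98, 20.6 and 34.1 CPM with sgCtrl. The single library sgNcor1-1 1 stood far above the rest, and the other 5 Ncor1-guide libraries overlapped the controls. Its log2 fold change was 1.21 (adjusted p = 1.00, SE 0.68) with all libraries in edgeR and 0.45 (SE 0.40) without that one, and 0.98 (adjusted p = 0.537, SE 0.37) with the replicate number as a block. Set against the control of the same number, both Ncor1 guides were higher for Nr1d1 in 6 of 6 B16 differences (log2 0.23 to 2.46) and in 4 of 6 in Hepa1-6 (-0.32 to 1.43).

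Nr1d2, which encodes REV-ERBβ, was steadier. In Hepa1-6 it had 82.8, 94.9 and 99.8 CPM with sgNcor1-1, 78.3, 81.0 and 109.6 CPM with sgNcor1-2 and 90.8, 143 and 101 CPM with sgCtrl. All 3 groups overlapped and sgCtrl 2 was the highest library. In B16 it had 150.4, 55.1 and 83.6 CPM with sgNcor1-1, 120.2, 39.0 and 82.0 CPM with sgNcor1-2 and 92.7, 42.8 and 80.4 CPM with sgCtrl, in an order that followed the replicate number, with number 2 lowest and number 1 highest under every guide. The log2 fold changes in edgeR were -0.30 (adjusted p = 0.577, SE 0.18) in Hepa1-6 and 0.30 (adjusted p = 1.00, SE 0.42) in B16. In B16 the value was 0.04 (SE 0.38) without sgNcor1-1 1. The Nr1d1 and Nr1d2 fold changes pointed in opposite directions in Hepa1-6, neither beyond the spread between libraries.

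Arntl, whose BMAL1 protein is the core activator and whose gene is the classical REV-ERB target, had 22.1, 56.6 and 27.8 CPM with sgNcor1-1, 21.4, 50.8 and 34.3 CPM with sgNcor1-2 and 31.05, 24.8 and 28.8 CPM with sgCtrl in Hepa1-6. Both Ncor1-guide libraries numbered 2 were high and both numbered 1 were low, and the controls lay between 24.8 and 31.1 CPM. In B16 it had 12.5, 22.9 and 20.4 CPM with sgNcor1-1, 26.2, 24.0 and 20.3 CPM with sgNcor1-2 and 15.2, 19.5 and 19.0 CPM with sgCtrl, a narrow range in which all groups overlapped. The log2 fold changes were 0.32 (adjusted p = 0.770, SE 0.34) in Hepa1-6 and 0.22 (adjusted p = 1.00, SE 0.22) in B16, without a call by edgeR. In Hepa1-6 the value lay between 0.07 and 0.44 when each library was left out in turn, and was 0.65 (adjusted p = 0.358, SE 0.31) without the libraries numbered 1.

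Clock, the constant partner of BMAL1, had 87.3, 83.9 and 62.3 CPM with sgNcor1-1, 77.4, 72.6 and 83.9 CPM with sgNcor1-2 and 107, 97.4 and 81.6 CPM with sgCtrl in Hepa1-6. The log2 fold change was -0.30 (adjusted p = 0.511, SE 0.15) in edgeR, and the value of sgCtrl 3 lay among those of the Ncor1-guide libraries. In B16 it had 90.1, 66.7 and 127 CPM with sgNcor1-1, 129.8, 65.7 and 103 CPM with sgNcor1-2 and 96.8, 68.0 and 99.7 CPM with sgCtrl, with a log2 fold change of 0.14 (adjusted p = 1.00, SE 0.26). Number 2 was the lowest under every guide there.

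Npas2, the paralogue that can replace CLOCK, was rare. In Hepa1-6 it had 0.718, 1.86 and 3.08 CPM with sgNcor1-1, 0.800, 2.79 and 3.00 CPM with sgNcor1-2 and 0.570, 0.658 and 0.751 CPM with sgCtrl. The 4 Ncor1-guide libraries numbered 2 and 3 lay above all controls, and of the Ncor1-guide libraries numbered 1, sgNcor1-1 lay among the controls and sgNcor1-2 just above them. Its log2 fold change of 1.61 (adjusted p = 0.367, SE 0.60) was the largest of the clock genes in that line, with an unadjusted p of 0.0239 and no call by edgeR. Without the libraries numbered 1 it was 1.92 (adjusted p = 0.104, SE 0.38). The difference from the control of the same number was above 0 for Npas2 in 6 of 6 cases (log2 0.30 to 2.04). In B16 the summed count of Npas2 was 2 in the 6 Ncor1-guide libraries and 3 in the 3 controls, with at most 0.0986 CPM in a library, too few to be tested.

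Per1, an inhibitor that also responds acutely to serum and cyclic AMP, had 16.1, 49.6 and 57.2 CPM with sgNcor1-1, 15.0, 51.4 and 52.5 CPM with sgNcor1-2 and 32.7, 78.6 and 68.8 CPM with sgCtrl in Hepa1-6. Number 1 was lowest under every guide, and each Ncor1-guide library lay below the control of its own number (0 of 6 log2 differences above 0, -1.12 to -0.27). The fold change in edgeR was -0.58 (adjusted p = 0.690, SE 0.48) on the log2 scale, and -0.49 (adjusted p = 0.208, SE 0.14) without the libraries numbered 1. Per1 in Hepa1-6 was called in 1 alternative, the fit with the replicate number as a block, described with the other alternatives. In B16, Per1 had 788, 44.9 and 97.8 CPM with sgNcor1-1, 75.9, 24.1 and 105 CPM with sgNcor1-2 and 104, 37.7 and 80.5 CPM with sgCtrl. The library sgNcor1-1 1 lay far above the next one, and the other libraries of the 3 groups overlapped. The log2 fold change was 0.99 (adjusted p = 1.00, SE 0.85) with that library and turned to -0.10 (SE 0.50) without it. By guide in B16, Per1 was at a log2 fold change of 2.12 with sgNcor1-1 and -0.14 with sgNcor1-2, and neither was called. Without sgNcor1-1 1 the value of sgNcor1-1 was -0.06.

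The same B16 library was also high in the summed level of 16 serum, cyclic AMP and stress response genes. The sum was 3726 CPM in sgNcor1-1 1, 1317 CPM in sgNcor1-2 1 and 1239 CPM in sgCtrl 1. In the B16 libraries numbered 2 and 3 it was 446 to 853 CPM, so the list also went with the replicate number. Of its 14 genes tested in B16, 6 were lowest in number 3 under all 3 guides, against 7.3% of all genes tested. The list was uneven. Over the 6 differences from the control of the same number in B16, the highest log2 value was 5.87 for Hspa1b and 4.17 for Hspa1a. For Dusp1 it was 2.57 and for Jun 1.91. It was only 0.35 for Fos, 0.27 for Junb and 0.12 for Egr1, and Atf3 was below its control in 6 of 6 cases. Fos and Junb were highest in number 1 under all 3 guides, the control guide included. The part of the summed difference in the values of Nr1d1, Per1, Dbp and Noct in sgNcor1-1 1 was not tested. In Hepa1-6 the sum was 907 to 1684 CPM, and 0 of 14 genes of the list tested in each line were called.

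Per2 was low in both lines. It had 3.59, 2.095 and 0.858 CPM with sgNcor1-1, 2.91, 2.62 and 2.24 CPM with sgNcor1-2 and 3.37, 0.911 and 2.303 CPM with sgCtrl in Hepa1-6, with wide overlap and a log2 fold change of 0.11 (adjusted p = 0.963, SE 0.51) in edgeR, or 0.22 (SE 0.50) without the libraries numbered 1. In B16 the summed count of Per2 was 52 in the 6 Ncor1-guide libraries and 9 in the 3 controls, or 0.0760, 0.119 and 0.913 CPM with sgNcor1-1, 0.404, 0.267 and 0.917 CPM with sgNcor1-2 and 0, 0.293 and 0.179 CPM with sgCtrl. Both Ncor1-guide libraries numbered 3 were the highest, 3 counts were worth 0.121 to 0.228 CPM depending on the library, and the gene did not reach the filter for testing. Cry1, the cryptochrome among the members, had 11.1, 13.4 and 7.25 CPM with sgNcor1-1, 10.8, 13.0 and 9.20 CPM with sgNcor1-2 and 17.7, 15.0 and 12.9 CPM with sgCtrl in Hepa1-6. Both Ncor1-guide libraries numbered 2, with 13.4 and 13.0 CPM, lay just above the lowest control of 12.9 CPM, and the other 4 below it. The log2 fold change was -0.50 (adjusted p = 0.479, SE 0.24) in edgeR. In B16 Cry1 had 19.9, 13.8 and 21.8 CPM with sgNcor1-1, 15.5, 20.3 and 22.4 CPM with sgNcor1-2 and 23.6, 19.2 and 23.4 CPM with sgCtrl, and a log2 fold change of -0.22 (adjusted p = 1.00, SE 0.21). Cry1 had the same sign in both lines, below 0, and lay under the control of its number in 6 of 6 pairs in Hepa1-6 and in 5 of 6 in B16.

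Dbp encodes a PAR-domain activator that carries the clock to detoxification and metabolic genes, and its transcript is among the most strongly rhythmic in liver. In Hepa1-6 it had 7.93, 28.7 and 47.7 CPM with sgNcor1-1, 7.77, 41.6 and 46.1 CPM with sgNcor1-2 and 5.598, 35.1 and 27.8 CPM with sgCtrl. The libraries numbered 1 were several-fold below the others under every guide, and the groups overlapped. The log2 fold change was 0.38 (adjusted p = 0.884, SE 0.73) in edgeR, and 0.38 (SE 0.23) without the libraries numbered 1. In B16 Dbp had 167, 29.6 and 72.3 CPM with sgNcor1-1, 68.3, 14.2 and 97.4 CPM with sgNcor1-2 and 46.0, 17.2 and 47.5 CPM with sgCtrl. Number 2 was lowest under every guide and sgNcor1-1 1 was the highest library. The log2 fold change was 1.00 (adjusted p = 1.00, SE 0.67), and 0.57 (SE 0.61) without sgNcor1-1 1. Against the control of the same number, Dbp was higher in 5 of 6 cases in each line.

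Noct encodes nocturnin, a rhythmic phosphatase of NADP cofactors that was first described as a deadenylase. Per exon length it was the most abundant member. In Hepa1-6 it had 741, 939 and 1142 CPM with sgNcor1-1, 724, 951 and 1089 CPM with sgNcor1-2 and 1416, 1283 and 1047 CPM with sgCtrl. Only sgNcor1-1 3 and sgNcor1-2 3 lay above the lowest control, and the log2 fold change was -0.43 (adjusted p = 0.466, SE 0.20) in edgeR, and -0.18 (SE 0.15) without the libraries numbered 1. In B16 it had 6185, 2612 and 4415 CPM with sgNcor1-1, 4467, 2134 and 3854 CPM with sgNcor1-2 and 3002, 2477 and 4091 CPM with sgCtrl, with number 2 lowest under every guide and a log2 fold change of 0.30 (adjusted p = 1.00, SE 0.33), or 0.12 (SE 0.29) without sgNcor1-1 1. The counts of this gene are uncertain. In the GENCODE vM21 annotation, 39.0% of the 31-base words of its transcripts occur in 1159 other genes, found in Noct-202 (43.5% of its words) and Noct-204, and none in Noct-201 and Noct-203.

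Each guide was also tested alone. Against control, sgNcor1-1 alone called 6 genes in Hepa1-6 (0.0482% of those tested) and 1 in B16 (0.0081%), and sgNcor1-2 alone called 10 (0.0803%) and 1 (0.0081%), with 0 clock genes in each. With the replicate number as a block the B16 counts were 11 and 22, again without a clock gene. Between sgNcor1-1 and sgNcor1-2, edgeR called 0 genes in either line (0%), while 9 genes in Hepa1-6 and 46 in B16 had an unadjusted p under 0.05 and DESeq2 also called 0. Nr1d1 in B16 had log2 fold changes of 1.85 with sgNcor1-1 and 0.57 with sgNcor1-2, and without the library sgNcor1-1 1 the first value was 0.32, below that of the other guide. Both comparisons share the same 3 control libraries. The difference of the knockout effect between the lines was tested in a joint fit of all 18 libraries, where 25 of 14044 genes (0.178%) and 0 of 10 clock genes were called. Without adjustment 1 clock gene had a p under 0.05 for that difference, where 6.91% of all genes did. It was Npas2, which was too rare to be tested in B16 and entered the joint fit through its Hepa1-6 counts, so that its p supports nothing.

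**Figure D2:**
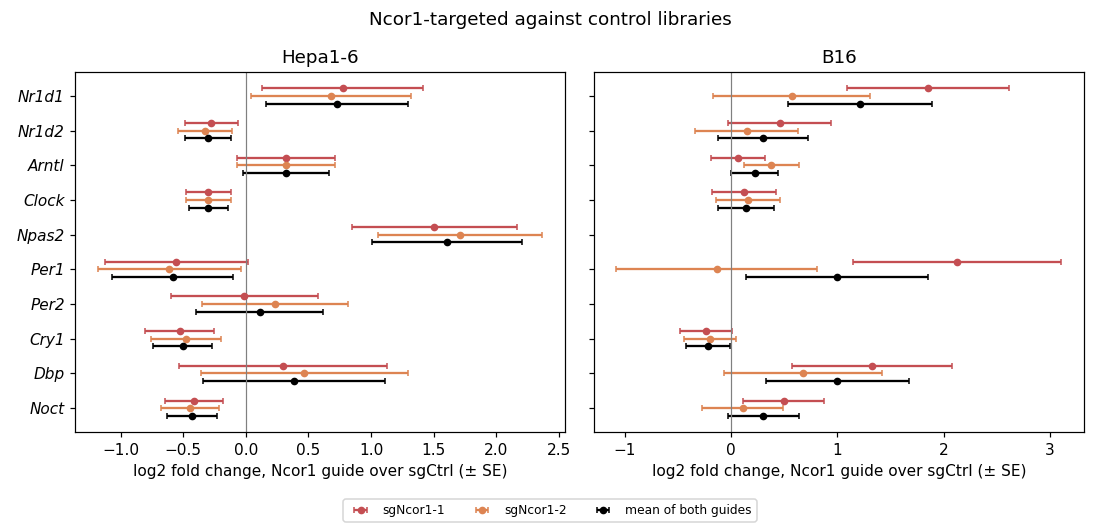
Log2 fold change of each clock gene, Ncor1 guide over sgCtrl (horizontal axis), with the standard error, for sgNcor1-1, sgNcor1-2 and the mean of both, in Hepa1-6 and B16. Npas2 and Per2 were not tested in B16. The widest gap between the guides is that of Per1 in B16, at 2.12 with sgNcor1-1 and -0.14 with sgNcor1-2, and the error bars of Nr1d2, Clock and Cry1 are shorter than those of Nr1d1, Per1 and Dbp.

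Levels of several clock genes went with the replicate number. The labels do not say what the number stands for. The pattern was noticed first and the test chosen after the values were seen, so the values below describe these libraries. In an edgeR fit with group and number as terms, the number was called for 3842 of 12458 genes in Hepa1-6 (30.8%) and for 4 of the 10 clock genes. These were Dbp (adjusted p = 0.000773, rank 29 of all genes), Per1 (0.00153), Nr1d1 (0.00542) and Npas2 (0.0392). In B16 it was called for 3724 of 12347 genes (30.2%) and for 6 of 8 clock genes, namely Nr1d2 (adjusted p = 0.00408), Dbp (0.0100), Nr1d1 (0.0234), Clock (0.0257), Noct (0.0373) and Per1 (0.0431). The edgeR calls of Dbp, Per1 and Nr1d1 in Hepa1-6 held with each library left out in turn (adjusted p at most 0.0452).

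These counts depend on single libraries. Without the libraries numbered 1, 0 genes and 0 clock genes were called in Hepa1-6, in a fit with 6 libraries and 2 numbers. With single Hepa1-6 libraries left out, 3 clock genes were called without each Ncor1-guide library and 4 to 6 without each control. In B16, 1 clock gene was called without sgNcor1-2 2, and 2 were called without sgNcor1-1 2, without sgCtrl 2 and without sgCtrl 3, 4 without sgNcor1-2 3, and 5 or 6 without each of the others. Nr1d2 was called with each of the 9 B16 libraries left out (edgeR adjusted p 0.00101 to 0.0293), and Dbp with 8 of 9, the exception being sgNcor1-2 2 (adjusted p = 0.0604). All 6 B16 calls were kept without the libraries numbered 1. Without the filter on low counts 4 were called, and those of Nr1d1 (edgeR adjusted p = 0.0503) and Per1 (0.151) were lost.

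The differences between numbers were several-fold for some genes. Over the mean log2 levels of the 3 numbers, Dbp spanned 2.49 in Hepa1-6 and 2.06 in B16, Nr1d1 spanned 1.81 and 1.93, and Per1 spanned 1.57 and 2.42. The B16 values of Nr1d1 and Per1 include the high library sgNcor1-1 1. Arntl spanned 0.76 in Hepa1-6 and 0.37 in B16. In Hepa1-6 number 1 was lowest under all 3 guides for 5 of 10 clock genes (Nr1d1, Nr1d2, Npas2, Per1 and Dbp), as for 3024 of the 12458 genes tested (24.3%). In B16 number 2 was lowest under all 3 guides for 6 of 8 (Nr1d1, Nr1d2, Clock, Per1, Dbp and Noct), as for 2471 of the 12347 genes tested. Nr1d1, Nr1d2, Per1 and Dbp are in both lists, although a different number was low in each line. Among 26 other clock genes the low number was number 1 for 7 of 22 tested in Hepa1-6 and number 2 for 6 of 23 tested in B16.

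**Figure D3:**
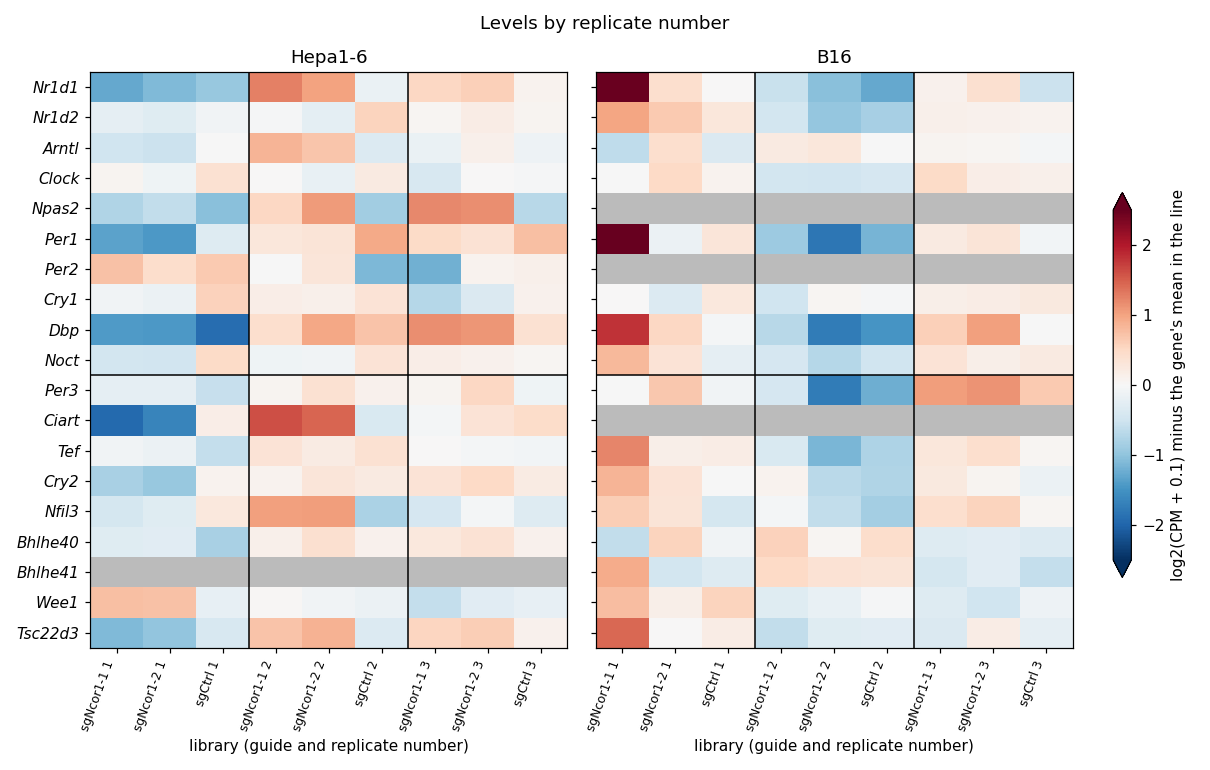
Level of clock genes in each library, as log2(CPM + 0.1) minus the gene's mean over the 9 libraries of a line (colour, limits at -2.5 and 2.5), with libraries ordered by replicate number. The 10 members stand above the horizontal line, further clock genes and outputs below it, and grey rows were not tested in that line. Dbp, Nr1d1 and Per1 are low in number 1 of Hepa1-6 and number 2 of B16, Nr1d1 of B16 sgNcor1-1 1 is near the upper colour limit, and Per1 of that library lies beyond it.

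Variance was also split between numbers and guides, gene by gene. Of the variance of log2 CPM over the 9 Hepa1-6 libraries, 94.5% lay between numbers and 2.97% between guides for Dbp, 81.2% and 15.5% for Per1, and 80.6% and 7.44% for Nr1d1, where the median gene had 49.9% and 15.3%. Npas2, Clock, Cry1 and Noct had more variance between guides than between numbers there, with 45.7% between guides for Npas2 and 45.6% for Cry1. In B16 the share between numbers was 88.7% for Nr1d2, 80.0% for Clock, 72.1% for Dbp and 69.0% for Noct, against 54.2% for the median gene. Nr1d1 (56.8%) and Per1 (55.2%) lay close to the median gene there, and Cry1 (34.6%) below it. Arntl was the one of the 8 tested members with more variance between guides (33.7%) than between numbers (23.9%) in B16.

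**Figure D4:**
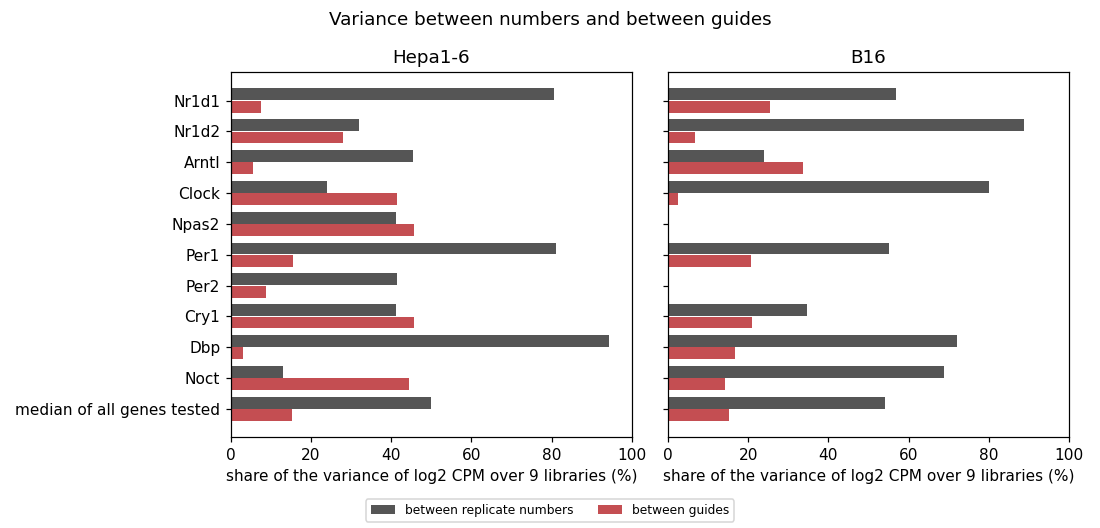
Share of the variance of log2 CPM over the 9 libraries of a line (horizontal axis, %) that lies between replicate numbers (dark) and between guides (red), for each clock gene and for the median of all genes tested. Npas2 and Per2 are not shown for B16. Dbp in Hepa1-6 and Nr1d2 in B16 have the longest bars between numbers.

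Counting could mix some members with neighbours, since the labels do not say whether reads were assigned by strand. On GRCm38, Nr1d1 on chromosome 11 from 98767932 to 98775333 (minus strand) shares 263 exon bases (8.55% of its exon bases) with Thra on the opposite strand, and Dbp on chromosome 7 from 45705088 to 45710203 (plus strand) shares 539 (18.0%) with Sphk2. The partners spanned less over the numbers, but Thra was lowest in the same number as Nr1d1 under all 3 guides in both lines, and whether reads were mixed was not tested. Thra spanned 0.35 in Hepa1-6 and 0.66 in B16, and Sphk2 spanned 0.35 and 0.51 on the log2 scale. Of the 31-base words of Nr1d2, 9.51% are shared with the gene model AC170187.1. The other promoters printed above belong to Per1 on chromosome 11 from 69095217 to 69109960 (plus strand) and Arntl on chromosome 7 from 113207465 to 113314126 (plus strand).

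Between the lines, edgeR called 4 of the 10 clock genes in the controls, where it called 8342 of 14044 genes (59.4%). Of the 4, Npas2 and Per2 entered the joint fit through their Hepa1-6 counts, so that their calls are no independent support. There is 1 line of each kind, so the p-values compare these libraries. Nr1d1 averaged 134 ± 45.6 CPM in Hepa1-6 sgCtrl and 34.9 ± 14.7 CPM in B16 sgCtrl (SD, n = 3 each), with a log2 fold change, Hepa1-6 over B16, of 1.94 (adjusted p = 0.0352, SE 0.75) in edgeR. That call was lost without a filter on low counts (adjusted p = 0.0897) and without each of 4 single libraries, Hepa1-6 sgCtrl 2 and 3 and B16 sgCtrl 2 and 3, with adjusted p from edgeR up to 0.108. Noct averaged 1249 ± 187 CPM in Hepa1-6 sgCtrl and 3189.9 ± 823 CPM in B16 sgCtrl (SD, n = 3 each), a log2 fold change of -1.35 (adjusted p = 0.00202, SE 0.33).

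Counts of Npas2 and Per2 were higher in the Hepa1-6 controls. Npas2 had a summed count of 39 in the 3 Hepa1-6 controls and 3 in the 3 B16 controls, a depth-scaled ratio of 13.2 with a 95% interval of 4.18 to 66.5 that covers counting error only. Per2 had a summed count of 129 in the Hepa1-6 controls and 9 in the B16 controls, a ratio of 14.5 with an interval of 7.40 to 32.4. The other members missed the threshold, with log2 fold changes, Hepa1-6 over B16, of 0.66 for Arntl, 0.63 for Nr1d2, 0.11 for Clock, -0.30 for Per1, -0.54 for Cry1 and -0.69 for Dbp.

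Levels of different genes can be set beside each other only per length, here as CPM per kilobase of exon over the 9 libraries of a line. In Hepa1-6 the order of the mean levels was Noct (97.3), Nr1d1 (62.9), Nr1d2 (18.1), Dbp (9.21), Per1 (8.32), Clock (6.10), Arntl (4.40), Cry1 (3.67), Per2 (0.397) and Npas2 (0.330). Only Cry1 and Per2 were neighbours whose libraries did not overlap. In B16 it was Noct (346), Per1 (26.8), Nr1d1 (22.6), Dbp (20.8), Nr1d2 (15.3), Clock (6.86), Cry1 (5.99), Arntl (2.66), Per2 (0.0601) and Npas2 (0.00552). There the neighbours that did not overlap were Noct and Per1, Cry1 and Arntl, and Arntl and Per2. The receptor gene Nr1d1 followed Noct in Hepa1-6, and Noct and Per1 in B16, with ranges of 21.8 to 127 and 6.69 to 89.7 CPM per kilobase. The place of Per1 in B16 rests on the library sgNcor1-1 1, with 139.9 CPM per kilobase. By median, Per1 (14.3) lay below Nr1d1 (16.2), Dbp (15.9) and Nr1d2 (15.2) there.

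Of 18 genes known to be repressed by REV-ERB receptors, 8 were tested in Hepa1-6, of which 2 had fold changes above 0 and 1 was called, lower, with a median of -0.26 on the log2 scale (0.02 over all genes). The called gene was Lpl, lipoprotein lipase, with 44.9, 33.2 and 45.0 CPM with sgNcor1-1, 47.6, 43.9 and 37.9 CPM with sgNcor1-2 and 74.1, 92.8 and 105 CPM with sgCtrl. All 6 Ncor1-guide libraries lay below all controls, and Lpl fell by 1.11 on the log2 scale (SE 0.17, adjusted p = 0.0423 in edgeR). The call was lost with each of the 9 libraries left out in turn (edgeR adjusted p 0.0553 to 0.282, log2 -1.24 to -0.99), was kept without the libraries numbered 1, and DESeq2 gave an adjusted p of 2.74e-05. Ppargc1a, the coactivator PGC-1α, had 1.13, 1.22 and 1.95 CPM with sgNcor1-1, 1.09, 2.12 and 2.95 CPM with sgNcor1-2 and 4.77, 7.29 and 4.16 CPM with sgCtrl, without overlap. Its log2 fold change of -1.66 (adjusted p = 0.150, SE 0.37) was not called by edgeR and was called by DESeq2 (adjusted p = 0.00399). Rora, the activator that competes with REV-ERB for its elements, was at -0.87 (adjusted p = 0.467, SE 0.40), and Nfil3, a repressor that competes with DBP, at 0.51 (adjusted p = 0.707, SE 0.44).

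In B16, 9 genes of the same list were tested, of which 8 had fold changes above 0 and 0 were called, with a median of 0.40 (0.01 over all genes). Nfil3 was at 0.63 (adjusted p = 1.00, SE 0.30), Ppargc1a at 0.40 (adjusted p = 1.00, SE 0.32) and Cd36, a fatty acid transporter, at 0.95 (adjusted p = 1.00, SE 0.84). For the difference between the lines, 2 of 11 genes of the list were above 0, with a median of -1.27 (0.01 over all genes). In the main fit edgeR called 0 of them, while DESeq2 called Ppargc1a (adjusted p = 0.0179). An alternative edgeR fit also called Ppargc1a (adjusted p = 0.0116). No edgeR fit with a single library left out did (adjusted p at least 0.0684). Some of the 11 were tested in a single line only, such as Lpl in Hepa1-6 and Cd36 in B16. That count and median are therefore no independent support for a difference between the lines. Arntl, the classical target, is a member and is not in this list.

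Of 26 other clock genes, 22 were tested in Hepa1-6 and 23 in B16, 13 and 14 had fold changes above 0, the median was 0.08 in each line, and 0 were called by edgeR. In Hepa1-6 the smallest p belonged to Usp2, a deubiquitinase with a rhythmic transcript, with 1.06, 0.698 and 0.819 CPM with sgNcor1-1, 1.02, 1.37 and 1.32 CPM with sgNcor1-2 and 2.44, 2.28 and 2.70 CPM with sgCtrl and a log2 fold change of -1.26 (adjusted p = 0.180, SE 0.30). Its 6 Ncor1-guide libraries lay below the 3 controls, and DESeq2 called it (adjusted p = 0.0144), as it did for the difference between the lines (adjusted p = 0.00211). Prkaa2, a catalytic subunit of the kinase AMPK, was at -0.91 (adjusted p = 0.380, SE 0.34), and Tipin, a partner of TIMELESS, at 0.85 (adjusted p = 0.427, SE 0.36). Prkaa2 passed the threshold under an alternative, both in Hepa1-6 and for the difference between the lines, but not with any single library left out. Against the control of the same number it lay at log2 -1.56 to -0.37 in Hepa1-6 and 0.02 to 0.28 in B16. In B16 Gsk3b, a kinase that phosphorylates clock proteins, was at 0.33 (adjusted p = 1.00, SE 0.16), Hlf, a relative of DBP, at 0.62 (adjusted p = 1.00, SE 0.36), and Cry2, the second cryptochrome, at 0.48 (adjusted p = 1.00, SE 0.28). Against the control of the same number, Cry2 was higher in 6 of 6 cases in B16 (log2 0.08 to 0.86).

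Of 15 clock outputs, 15 were tested in Hepa1-6 and 14 in B16, with 7 and 11 above 0, medians of -0.06 and 0.10, and 0 called. The smallest p apart from Usp2 was that of Klf9 in Hepa1-6 at -0.44 (adjusted p = 0.494, SE 0.22) and of Por, the electron donor of cytochrome P450 enzymes, in B16 at 0.26 (adjusted p = 1.00, SE 0.16). The NCoR complex had 6 of 6 genes tested in each line, with 4 and 3 above 0 and 0 called. Apart from Ncor1, its smallest p belonged to Hdac3, the deacetylase of the complex, in Hepa1-6 at 0.27 (adjusted p = 0.503, SE 0.14) and to Tbl1xr1 in B16 at 0.51 (adjusted p = 1.00, SE 0.31).

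Which genes followed the members most closely was measured by the root mean square difference of log2 CPM over the 18 libraries, each line centred on its own mean, among 8848 genes with at least 5 CPM in each line. Nearest to Nr1d1 were Bbc3 (0.384), Ypel5 (0.444) and Tsc22d3 (0.461), where the deviation of Nr1d1 itself was 0.966. Dbp stood 19th and Per1 24th of the genes nearest to Nr1d1. Nearest to Dbp (own deviation 1.13) were Pdk2 (0.486), Arrdc2 (0.489) and Sat1 (0.498), with Nr1d1 6th and Per1 24th. Nearest to Nr1d2 (own deviation 0.467) were Pja2 (0.164), Pou2f1 (0.168) and Fbxl5 (0.168).

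Arntl (own deviation 0.396) was nearest to Zcchc24 (0.204), Kdm4a (0.209) and Cryzl1 (0.213), and Nr1d1 stood at place 8723 of 8848 from it. The distance between Arntl and Nr1d1 was 0.974, close to the 0.966 by which Nr1d1 itself deviates. The measure grows with the size of the swings, so that place does not show that the 2 genes moved in opposite directions. Counted from Nr1d1, Arntl stood at place 3627. For Per2, which is rare, Col8a1 (0.806), Cpm (0.871) and Fn1 (0.888) were nearest, at distances close to its own deviation of 1.19. With a minimum of 1 CPM, the 3 nearest genes stayed the same for Nr1d1, Nr1d2, Arntl and Dbp, and 1 of 3 did for Per2. Some libraries share a line or a number, and depth differs between libraries, so likeness here includes whatever moved with the number.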

How the data were processed

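Polyadenylated RNA of 18 libraries from the cell lines Hepa1-6 and B16 was sequenced. The submitters' processing notes name FastQC 0.12.1, Trim Galore 0.6.7 for trimming, Bowtie2 2.2.5 for alignment to mm10 and RSEM 1.2.8 for counting. The gene annotation, not given in the sources used here, may differ from the one below. The authors deposited 1 table of expected counts per line, in which RSEM shares reads among alike genes, so that 7.87% of the values in Hepa1-6 and 7.19% in B16 were not whole. All values were rounded to whole numbers. The table's columns name guides as KO1 and KO2, which were matched by number to sgNcor1-1 and sgNcor1-2. No 2 libraries of a line were alike enough to be 1 library (lowest chi-square per degree of freedom 11.4 in Hepa1-6 and 6.56 in B16).

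Genes were tested with edgeR 4.0.16 (R 4.3.3, limma 3.58.1) by quasi-likelihood, with its filter on low counts, TMM scaling, 1 mean per group and Benjamini-Hochberg adjustment over all genes tested, called under 0.05. Knockout against control is the mean of both guides minus sgCtrl within a line; the lines were compared in a joint fit. SE is the fold change divided by the root of the F statistic. Printed CPM use 1 TMM scaling over all 18 libraries, and log2 CPM a prior count of 0.5. Exon lengths and positions come from GENCODE vM21 (GRCm38), promoters from RefSeq (GRCm38.p6). On simulated data with known changes, edgeR recovered 29% of 2-fold and 93% of 4-fold changes in Hepa1-6 and 25% and 95% in B16.

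Libraries of the same number were tested for pairing by correlating their deviations from the group means. All 9 correlations in B16 were between 0.49 and 0.70, and the numbers were read as pairs in that line. The B16 fold changes, errors and p-values printed per gene still come from the fit without a block, unless the block is named. Their errors therefore include the spread between numbers. Named genes are the 10 members, Ncor1, called genes of each list or otherwise up to 4 with the smallest p, and the 3 genes nearest to a member. One gene that the rule names in B16 is not reported here. The members, lists and rule were chosen with earlier results of these data known. Alternatives were RLE scaling, no filter, DESeq2 1.42.0, the replicate block, leaving out each library, and leaving out the libraries numbered 1. Depth limits the rare genes: 3 counts are worth 0.121 to 0.228 CPM in B16, and such limits cover counting error only.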

Additional observations from a re-analysis of the deposited data

How the results depend on the processing

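No value changed direction past the threshold under an alternative, and the count of clock genes called for the Ncor1 guides stayed at 0 under all of them except the replicate block in Hepa1-6, which called 1, Per1 (log2 -0.69, edgeR adjusted p = 0.0390). The numbers were not read as pairs in Hepa1-6, where the correlation of sgNcor1-1 2 with sgCtrl 2 was 0.07. The others lay between 0.20 and 0.88, so pairing was uneven in that line and not absent. With the replicate block, genes called were 525 in Hepa1-6 (4.21% of those tested, 184 higher and 341 lower), 81 for sgNcor1-1 and 100 for sgNcor1-2, and 67, 24 and 24 when the libraries numbered 1 were left out too. In B16 the block gave 48, 11 and 22, and 339, 61 and 266 without sgNcor1-1 1, and it gave 236 for the difference between lines. In Hepa1-6 it also called Ppargc1a (adjusted p = 0.0225) and Usp2 (0.0404). It changed no other call for a clock gene, except that 8 in place of 4 were called between the control lines (Nr1d2, Arntl, Cry1 and Dbp were added). DESeq2 called 287, 94 and 114 genes in Hepa1-6, 48, 32 and 31 in B16, and 107 for the difference between lines. Without a filter, 11 genes were called for Hepa1-6 sgNcor1-1, and 17, 2 and 3 in B16. Without the libraries numbered 1, 0 genes were called in B16, 49 for the difference between lines, and 0 genes and 0 clock genes for the number in Hepa1-6. The cause of these changes was not tested.

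With each library left out in turn, genes called were 6 to 19 in Hepa1-6 (1 to 11 for sgNcor1-1 and 1 to 12 for sgNcor1-2), 1 to 3 in B16 (0 to 1 for each guide), 15 to 30 for the difference between lines and 7416 to 8896 between the control lines, with 3 to 4 clock genes. For the number they were 800 to 5448 in Hepa1-6 with 3 to 6 clock genes, and 1244 to 5786 in B16 with 1 to 6. Of 150 values of clock genes in Hepa1-6 under all alternatives, 149 kept their side of the threshold, as did 120 of 120 in B16 and 230 of 230 for the difference between lines; between the control lines 220 of 230 did. Depth limits Npas2 and Per2 in B16, whose counts were too low to be tested there.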

Other observations

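Both Hepa1-6 Ncor1-guide libraries numbered 2 were high in several clock genes beside their control, a pattern chosen after the values were seen and not tested. Other clock genes went the other way, with Nr1d2, Clock, Per1, Cry1 and Noct below sgCtrl 2 in both libraries. Ciart, a repressor of BMAL1 and CLOCK that is itself under their control, had 23.1 CPM in sgNcor1-1 2 and 20.6 CPM in sgNcor1-2 2, against 5.72 CPM in sgCtrl 2. In the same libraries Nfil3 had 38.8 and 39.0 CPM, against 10.8 CPM in sgCtrl 2. Arntl had 56.6 and 50.8 CPM there, against 24.8 CPM in the control. In the libraries numbered 1 the order was the other way for Ciart, with 1.88 CPM in sgNcor1-1 1 and 2.303 CPM in sgNcor1-2 1, against 8.40 CPM in sgCtrl 1.

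Among the other fixed marker lists, immune genes summed to 15.0 to 106 CPM in Hepa1-6, nearly all of it Cd68, while Ptprc reached at most 0.171 CPM. Of the fibroblast list in Hepa1-6, Dcn had 713 to 1609 CPM, Col1a1 at most 1.29 CPM and Pdgfrb at most 0.150 CPM, with Lum at 0.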
